A study of Mus musculus with 6 samples.

Results

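NF-kB is a family of dimeric transcription factors, and 10 genes of this system were followed here among the 31253 genes of the deposited tables. They were chosen by name: the 5 subunits (Nfkb1, Nfkb2, Rel, Rela and Relb), 2 members of the IkB family (Nfkbia and Nfkbiz), the ubiquitin-editing inhibitor Tnfaip3 with its partner Tnip1, and the ubiquitin ligase Birc3. All 10 were found in every library, and all 10 passed the filter on low counts in every class tested. The samples were livers of Stingfl/fl Cdh5-Cre+ mice (knockout) and of Stingfl/fl Cdh5-Cre- littermates (control), with 3 biological replicates per group. Both groups carried the floxed Sting alleles, ate chow until 8 weeks of age and then received western diet with CCl4 (WD-CCl4) for 12 weeks, a model of steatohepatitis, and the Cre gene was driven by the endothelial promoter Cdh5. Dissociated liver cells were profiled with 10X Chromium 3' libraries, in which unique molecular identifiers (UMIs) count transcripts.

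In resting cells NF-kB dimers are held in the cytoplasm by IkB proteins. Signals from TNF, interleukin-1 and Toll-like receptors activate the IkB kinase complex, IkBα is destroyed, and dimers of RELA, REL and p50 enter the nucleus (the canonical pathway). Receptors such as LTBR and CD40 also stabilise the kinase NIK, which drives processing of the Nfkb2 product to p52 and its pairing with RELB (the non-canonical pathway). Several inhibitors are themselves NF-kB targets and close a negative feedback loop: Nfkbia encodes IkBα, Tnfaip3 encodes A20, Tnip1 encodes its partner ABIN1, and Birc3 encodes cIAP2, which acts at TNF receptors and restrains NIK together with TRAF proteins. Nfkbiz encodes IkBζ, a nuclear IkB that acts as a cofactor at a further set of target genes. In the liver, NF-kB is known for inflammatory gene expression in myeloid and endothelial cells and for survival signals in epithelial cells.

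The 6 libraries held between 55017937 and 73867890 UMIs over 5133 to 9212 barcodes, and 41573 cells remained after filtering. Pairs of libraries shared 5 to 25 cell barcodes, at most 0.328% of the smaller library. Clusters were given names from marker genes only, and 14 classes were named. Of these, 11 had at least 20 cells in every library and were compared between genotypes, and 13 had that number in at least 5 libraries and are described by level. No cluster was named as macrophage, monocyte or hepatocyte. The labels call the cell type liver sinusoidal endothelial cells, but endothelial-like cells were 2600 of the 41573 cells (6.25%). Of those 2600, 215 (8.27%) lay in the cluster led by Stab2, Adam23, Mrc1 and Clec4g, which holds the sinusoidal markers. This cluster was 1.23% to 16.1% of endothelial-like cells in control and 3.44% to 17.6% in knockout libraries. The targeted gene Sting1 was at 28.0, 26.5 and 26.9 CPM (UMIs of the gene per 1000000 UMIs) in the endothelial-like cells of the 3 control libraries and at 21.3, 14.6 and 22.2 in the knockout libraries. Its log2 fold change was -0.47 ± 0.18 (SE), which did not pass edgeR's quasi-likelihood test (adjusted p = 0.747). It was also lower without overlap in B-like cells (7.38, 7.49 and 9.70 against 4.07, 4.92 and 5.10 CPM) and in NK/ILC1-like cells (17.2, 15.5 and 18.98 against 10.7, 9.15 and 9.77 CPM), with edgeR adjusted p-values of 0.531 and 0.561. In T-like cells it was 11.9, 13.02 and 14.8 CPM in control and 13.6, 13.9 and 12.1 in knockout libraries, which overlapped. The groups also overlapped in cDC1-like, cholangiocyte-like, mesothelial-like and plasma-like cells, with Sting1 log2 fold changes of 0.35, 0.18, 0.25 and 0.33. Of all genes, 6.17%, 6.09% and 6.38% were lower without overlap in endothelial-like, B-like and NK/ILC1-like cells. These Sting1 values use TMM-scaled library sizes. Which exons are floxed is not given in the sources used here, so whether these 3' counts report the deletion is not known. The labels call libraries of the same group biological replicates and do not say how many mice went into each. A first principal component was taken in each class over genes with a mean log2 CPM above 5, with the members left out. On it the libraries separated by genotype in 1 of the 11 classes, mesothelial-like cells (5.48 to 12.6 in control and -11.1 to -7.09 in knockout libraries). In T-like cells control 1, control 2 and knockout 2 lay on one side and control 3, knockout 1 and knockout 3 on the other. The labels give no batch for this split.

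The feedback genes are known for kappa-B sites near their start, and promoter sequence bears on them directly. RefSeq promoters (GRCm38.p6, the same assembly as mm10) were matched by symbol for 7 of the 10 genes: Nfkb2, Rel, Rela, Nfkbia, Tnfaip3, Tnip1 and Birc3. Each window spans 250 bases before to 50 bases after a transcription start, and 10 windows were matched. The 10-base kappa-B consensus, searched on both strands, was present in windows of 5 of these 7 genes. It occurred in 4.505% of all 32851 promoter windows of this length, and in at least 1 window of 5.136% of 27025 genes. The stretches below are the 150 bases just before the start, 5′ to 3′ on the strand of the gene, and are shown because they carry the matches. Capitals mark the consensus, with overlapping matches merged.
Nfkb2 (chr19:46304587-46304736, plus strand): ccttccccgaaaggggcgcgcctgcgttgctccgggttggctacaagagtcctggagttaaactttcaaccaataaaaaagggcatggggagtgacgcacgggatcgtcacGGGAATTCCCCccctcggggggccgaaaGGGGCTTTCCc
Rel (chr11:23770970-23771119, minus strand): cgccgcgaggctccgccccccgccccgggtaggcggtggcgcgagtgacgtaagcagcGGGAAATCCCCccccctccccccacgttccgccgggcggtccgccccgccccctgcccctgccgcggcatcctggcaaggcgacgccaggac
Nfkbia (chr12:55492648-55492797, minus strand): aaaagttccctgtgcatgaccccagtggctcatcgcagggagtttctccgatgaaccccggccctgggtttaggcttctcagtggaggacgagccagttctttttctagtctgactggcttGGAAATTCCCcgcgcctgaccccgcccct
Tnfaip3 (chr10:19015411-19015560, minus strand): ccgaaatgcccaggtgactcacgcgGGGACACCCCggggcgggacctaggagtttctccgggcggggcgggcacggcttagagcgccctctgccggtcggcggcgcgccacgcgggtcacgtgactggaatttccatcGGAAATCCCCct
Tnip1 (chr11:54962941-54963090, minus strand): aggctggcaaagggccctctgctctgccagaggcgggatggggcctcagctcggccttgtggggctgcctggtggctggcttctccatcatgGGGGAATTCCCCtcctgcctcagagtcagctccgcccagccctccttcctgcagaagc
The marked run began 39 and 11 bases before the start in Nfkb2, 92 in Rel, 29 in Nfkbia, 125 and 12 in Tnfaip3, and 58 in Tnip1. Nfkb2 has 3 starts in the table, and the windows of all 3 held a match. The windows of its downstream starts overlap and share a site, which is the only match of the last window. Tnfaip3 has 2 starts, and the window not shown held none. No match was found in the windows of Rela and Birc3. A match is a description of these letters and was not tested for binding.

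The 10 genes differed in where they were high. Levels between classes are given as CPM, the UMIs of the gene scaled to the UMIs of that class in each library, with mean ± SD over libraries, and are a description without a test. The genes were not used to build the clusters: none of the 10 was among the 3000 variable genes. Mature dendritic-like cells, lymphocytes and neutrophil-like cells held the highest levels of 9 of the 10 genes, and cholangiocyte-like cells the highest level of Rela. Plasma-like cells were lowest for 5 genes (Nfkb1, Nfkb2, Rela, Nfkbia and Nfkbiz).

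**Figure D1:**
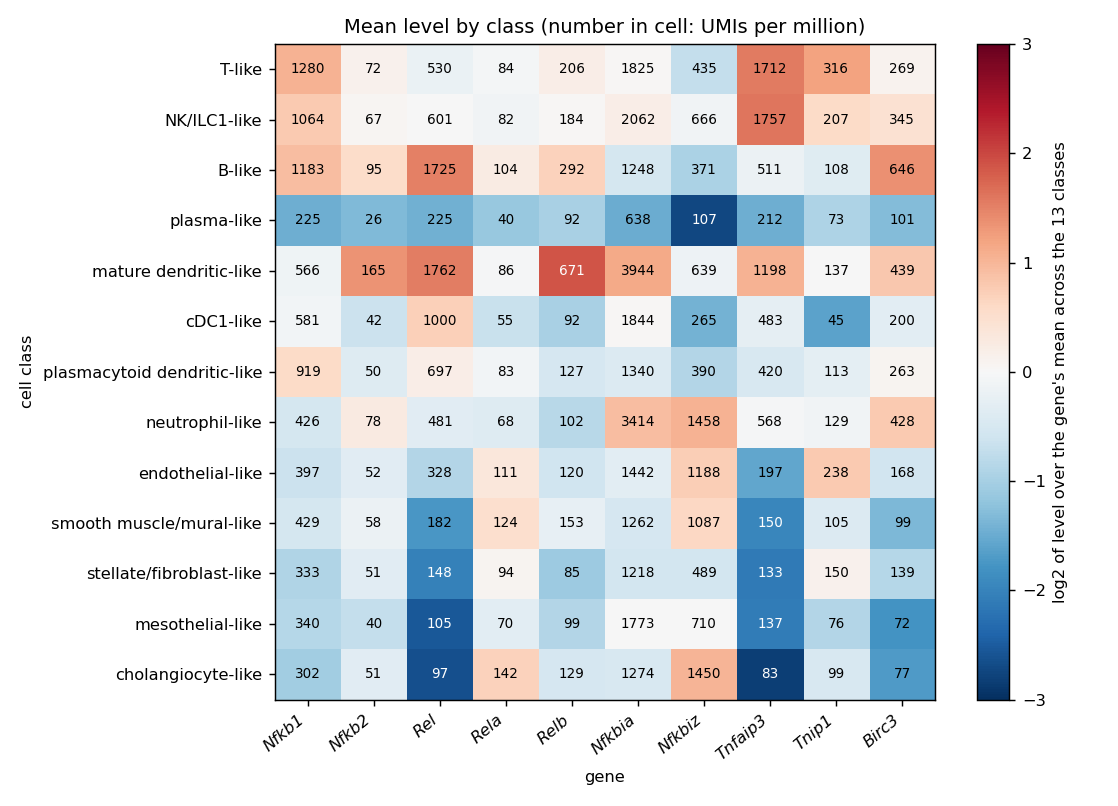
Mean level of each gene (columns) in the 13 classes (rows); the number is the mean over libraries in CPM, and the colour is log2 of that level over the mean of the gene across classes. Relb stands out in mature dendritic-like cells (671), Tnfaip3 in NK/ILC1-like (1757) and T-like cells (1712), and Nfkbiz in neutrophil-like (1458) and cholangiocyte-like cells (1450).

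Among the subunits, Rela and Nfkb1 varied less between classes than Rel. Rela, the main transactivating subunit of the canonical pathway, varied least, with a 3.58-fold span from 142 ± 14.9 CPM (n = 6) in cholangiocyte-like to 39.7 ± 7.0 (n = 6) in plasma-like cells. No neighbouring pair in its order of 13 classes had separate ranges over libraries. Nfkb1, which encodes p105 and p50, was highest in T-like cells at 1280 ± 124 CPM (n = 6), followed by B-like cells at 1183 ± 174 (n = 6), with overlapping ranges. Its span was 5.69-fold, and again no neighbouring classes separated.

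Rel, which encodes the lymphoid and myeloid subunit c-Rel, spanned 18.1-fold. It stood at 1762 ± 78.3 CPM (n = 5) in mature dendritic-like cells and 1725 ± 172 (n = 6) in B-like cells, values that overlapped. B-like cells led when a mean over cells was used. The step from B-like to cDC1-like cells (1000 ± 117, n = 6) was the only neighbouring pair with separate ranges. The lowest level was 97.2 ± 22.9 CPM (n = 6) in cholangiocyte-like cells.

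Relb and Nfkb2, the non-canonical pair, shared their highest class. Relb in mature dendritic-like cells was 635, 607 and 642 CPM in control libraries 1, 2 and 3 and 775 and 697 in knockout libraries 1 and 2 (knockout 3 had 17 such cells and was left out). Every one of these values lay above all B-like values, the next class, at 292 ± 9.5 CPM (n = 6), and B-like cells in turn lay above T-like cells (206 ± 12.0, n = 6). Nfkb2 was 165 ± 21.9 CPM (n = 5) in mature dendritic-like cells and 95.3 ± 8.1 (n = 6) in B-like cells, also without overlap. Below these first steps the ranges of neighbouring classes overlapped for both genes.

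The inhibitors did not share a pattern. Nfkbia reached 3944 ± 696 CPM (n = 5) in mature dendritic-like and 3414 ± 993 (n = 6) in neutrophil-like cells, which overlapped. Its lowest level, 638 ± 57.2 (n = 6) in plasma-like cells, was separate from every other class. Which of its 2 highest classes led was not stable: neutrophil-like cells led when doublets were kept or when a mean over cells was used.

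Nfkbiz, like Rela, was high in several non-immune classes. It was at 1458 ± 402 CPM in neutrophil-like, 1450 ± 165 in cholangiocyte-like, 1188 ± 176 in endothelial-like (n = 6 each) and 1087 ± 45.8 (n = 5) in smooth muscle/mural-like cells. The ranges of neighbours in this order overlapped, while all cholangiocyte-like values lay above all smooth muscle/mural-like values. Without control 3 or without knockout 2, cholangiocyte-like cells led. Its level in cDC1-like cells was 265 ± 33.1 and in plasma-like cells 107 ± 30.3 (n = 6 each).

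Tnfaip3 had the widest span of the 10 genes, 21.3-fold. NK/ILC1-like cells (1757 ± 130 CPM) and T-like cells (1712 ± 100, n = 6 each) overlapped and lay above all mature dendritic-like values (1198 ± 256, n = 5), which lay above all neutrophil-like values (568 ± 216, n = 6). T-like cells led for Tnfaip3 when a mean over cells was used. Endothelial-like cells held 197 ± 52.8 and cholangiocyte-like cells 82.6 ± 28.7 CPM (n = 6 each). Its partner Tnip1 was also highest in T-like cells (316 ± 28.2, n = 6), but endothelial-like cells came next at 238 ± 44.1 (n = 6), with overlap. Birc3 was highest in B-like cells at 646 ± 45.4 CPM (n = 6), above all mature dendritic-like values (439 ± 42.7, n = 5), and lowest in mesothelial-like cells at 71.6 ± 23.2 (n = 6).

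The genes whose pattern over the 13 classes was most like each member were sought among 7148 genes by Pearson's r of log2 mean CPM. These correlations describe 13 classes that share the same libraries and differ in depth. For Nfkb2 they were Relb (r = 0.87), Rab21 (0.86) and Vti1a (0.83). For Tnfaip3 they were Prex1, Rhof and Traf1 (r = 0.95 each), and for Rel they were Grb2 (0.95), Il10ra (0.94) and Cd83 (0.94). For Birc3 they were Osbpl8 (0.96) and 2 further IkB genes, Nfkbie and Nfkbid (0.91 each). Relb was nearest to Sdhaf1 (0.92), Birc2 (0.90), the paralog of Birc3, and Prr14 (0.90). Nfkbia was nearest to Adam8 (0.87), Sri (0.86) and Sema4a (0.85), and Nfkbiz to Csrnp1 (0.89), Rnf11 (0.86) and Mpp7 (0.85). Nfkb1 was nearest to Hnrnpm and Nup98 (0.94 each) and Arih2 (0.92), Rela to Otud1 (0.90) and Kansl3 (0.88), and Tnip1 to Rgs16 (0.83), Cdk17 (0.78) and Mbd2 (0.77). Among the members themselves, r was 0.90 for Rel and Birc3, 0.80 for Tnfaip3 and Birc3, and 0.72 for Rela and Nfkbiz, but -0.27 for Rel and Nfkbiz.

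Levels also varied inside the classes. Clusters are described here by their leading genes, for the 32 clusters with at least 20 cells in at least 5 libraries. Among T-like clusters, Nfkb1 was 2703, 2803 and 2553 CPM in the control libraries and 2210, 2730 and 2448 in the knockout libraries in the cluster led by Frmd5, Tnfrsf4, Il1rl1 and Ikzf2. All 6 values exceeded those of every other T-like cluster. The cluster led by Epha3, Gzmk and Ccl5 held the lowest mean of the T-like clusters, 663 ± 133 CPM (n = 6). The Frmd5 cluster also had the highest T-like means of Birc3 (426 ± 20.8, n = 6), Nfkb2 (102 ± 15.8, n = 6) and Tnfaip3 (2055 ± 240, n = 6), whereas the highest Tnip1 (479 ± 61.1, n = 6) was in the cluster led by Il17a, Il23r and Tnfsf8.

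**Figure D2:**
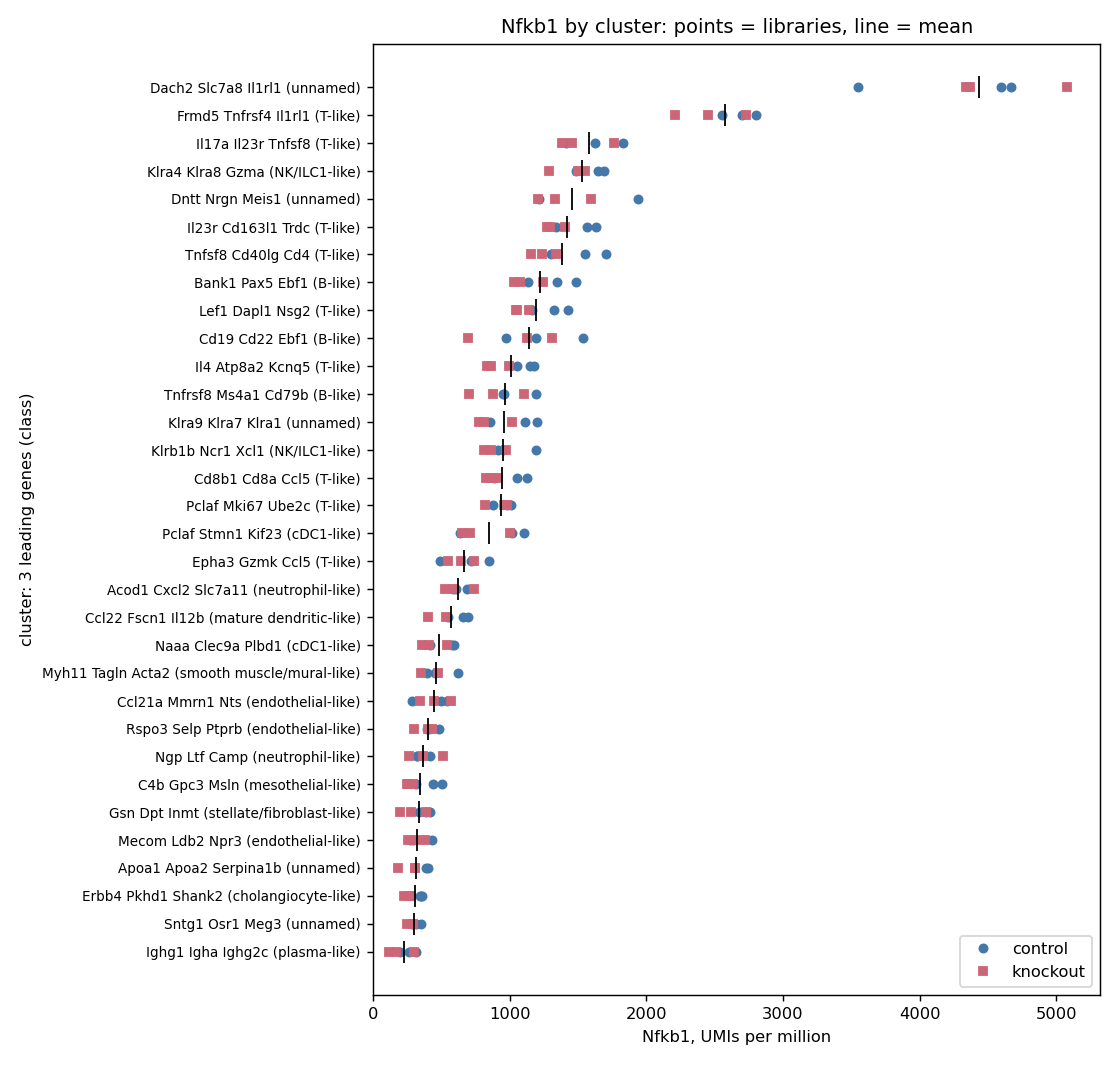
Nfkb1 in CPM (x axis) in each of the 32 clusters (y axis, named by their 3 leading genes and class); circles are control and squares knockout libraries, and the line is the mean. The unnamed cluster led by Dach2, Slc7a8 and Il1rl1 (mean 4434) and the T-like cluster led by Frmd5 (mean 2575) lie to the right of all others.

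Neutrophil-like cells split into a cluster led by Acod1, Cxcl2 and Il1b and a cluster led by Ngp, Ltf and Camp, which are granule genes of younger neutrophils. Nfkbia in the Acod1 cluster was 5796, 7178 and 7259 CPM in control and 7629, 7865 and 7116 in knockout libraries. In the Ngp cluster it was 1763, 1649 and 2830 in control and 1885, 2609 and 2468 in knockout libraries, so that no value reached those of the Acod1 cluster. The same separation held for Nfkbiz (2292 ± 425 against 1187 ± 310), Tnfaip3 (1061 ± 193 against 407 ± 183), Rel (822 ± 151 against 366 ± 102) and Birc3 (820 ± 153.2 against 291 ± 81.2 CPM, n = 6 each). Cells of the Acod1 cluster had a median UMI count 0.48 times that of their own libraries, and those of the Ngp cluster 1.57 times. These clusters come from the same expression data, so the differences are a description.

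**Figure D3:**
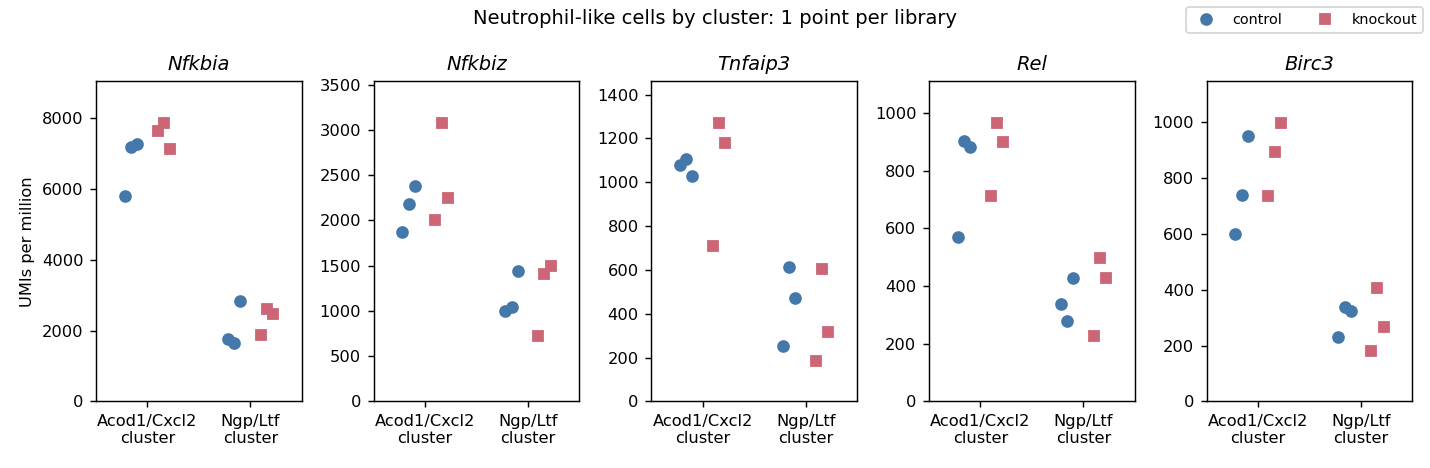
Level (y axis, CPM) of 5 genes in the 2 neutrophil-like clusters (x axis); each point is a library, circles for control and squares for knockout. All points of the Acod1/Cxcl2 cluster lie above all points of the Ngp/Ltf cluster for each of the 5 genes.

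The study's main question is what loss of Sting in endothelium does, so knockout was compared with control within each class on UMIs summed per library. In endothelial-like cells 9 of the 10 genes had lower means in the knockout and Rela a higher one, but none passed edgeR's quasi-likelihood test after Benjamini-Hochberg adjustment over 12161 genes (0 of 10, where 0% of all genes were called). DESeq2 also called 0 of the 10. The median log2 fold change of the 10 was -0.23, against 0.01 for all genes. In 3 genes all knockout values lay below all control values, where 6.17% of all genes did so, and the same 3 had an unadjusted p under 0.05 (6.66% of all genes). Values of single genes in these class comparisons are CPM with TMM-scaled library sizes. Summed lists and values of single clusters are plain CPM, so they stand on a different scale.

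In the mouse genome (mm10 coordinates), Nfkbia (ENSMUSG00000021025) lies at chr12:55489410-55492647, Nfkbiz (ENSMUSG00000035356) at chr16:55811375-55838899 and Relb (ENSMUSG00000002983) at chr7:19606217-19629438, all on the minus strand.

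Nfkbia was 1418.5, 1566 and 1914 CPM in control 1, 2 and 3 and 1184, 1239 and 1390.1 in knockout 1, 2 and 3. Every knockout value lay below every control value, by a narrow gap between knockout 3 and control 1. Its log2 fold change was -0.36 ± 0.15 (SE), with an adjusted p of 0.747 in edgeR's quasi-likelihood test. Nfkbiz was 1488, 1246.5 and 1305 CPM in the control and 917, 1043 and 1177 in the knockout libraries, again without overlap. Its log2 fold change was -0.36 ± 0.14 (SE, edgeR adjusted p = 0.747). Relb was 143, 126 and 127 CPM in the control and 106, 104 and 115.2 in the knockout libraries, also without overlap. Its log2 fold change was -0.28 ± 0.11 (SE, edgeR adjusted p = 0.747).

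Tnfaip3 had the largest difference of the 10 in endothelial-like cells, -0.48 ± 0.23 (SE, edgeR adjusted p = 0.747). Its values were 200.4, 198 and 297 CPM in control and 124, 167 and 207 in knockout libraries, which overlapped. The sum of 8 T-cell markers in endothelial-like cells was 54.5 to 85.2 CPM in control and 34.4 to 53.6 in knockout libraries, with 7 of the 8 markers lower in the knockout and none at 0 throughout. Of 10 macrophage markers, the sum was at most 12.7 CPM, with Clec4f, Cd5l and Marco at 0. When cells holding a T or NK marker UMI were left out (14.8% to 31.9% of endothelial-like cells per library), the log2 fold change of Tnfaip3 was -0.24 ± 0.33. Under the same step Relb stayed at -0.29, Nfkbiz at -0.37 and Nfkbia at -0.34, and Tnip1 went from -0.21 to -0.10.

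The other members overlapped between groups. Nfkb1 was 434 ± 43.2 CPM in control and 364 ± 62.6 in knockout libraries (n = 3 each), and Tnip1 257 ± 56.1 and 223 ± 43.6. Rel, Nfkb2 and Birc3 had log2 fold changes of -0.08 ± 0.17, -0.10 ± 0.13 and -0.07 ± 0.13 (SE). Rela was 108 ± 8.9 CPM in control and 114.6 ± 13.2 in knockout libraries, a log2 fold change of 0.09 ± 0.13. Control 3 weighed on several of these values. Without it Nfkb2, Rel and Birc3 were at 0.01, 0.03 and 0.06, Tnip1 was at -0.01, Nfkbia at -0.23 and Tnfaip3 at -0.25, while Relb (-0.31) and Nfkbiz (-0.38) were as low as before. Without control 3 edgeR called 80 genes in this class, none of them a member. Summed neutrophil markers in endothelial-like cells were 562 CPM in control 3 and 9.25 to 192 in the other libraries, and their part in these values was not tested. Without knockout 1, Rel was at 0.05. With the split of the libraries as a term, no member was called, and Tnip1 moved to -0.35 ± 0.12, Nfkbia to -0.42 ± 0.13 and Tnfaip3 to -0.55 ± 0.22 (SE).

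**Figure D4:**
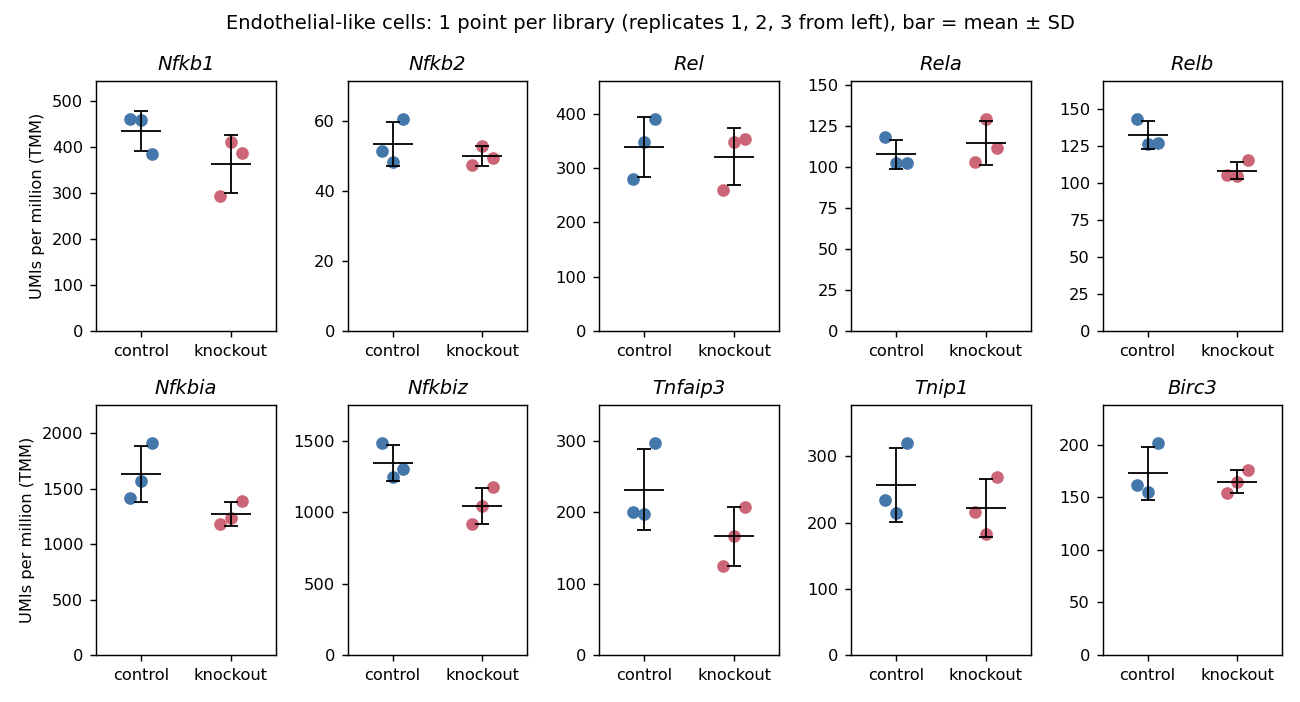
Level of the 10 genes (y axis, TMM-scaled CPM, from 0) in endothelial-like cells of each control and knockout library; the long line is the mean and the whiskers the SD of 3 libraries. Relb, Nfkbia and Nfkbiz show no overlap between the groups, and the other 7 genes overlap.

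Summed endothelial markers went the other way from the members in these cells, at 5762 to 6217 CPM in control and 6901 to 7973 in knockout libraries, without overlap. A list of 21 genes induced by tissue dissociation was lower in the knockout. Its summed level in endothelial-like cells was 56650 to 65300 CPM in control and 40935 to 55936 in knockout libraries, without overlap. Of the 21 genes, 20 had lower means in the knockout (median log2 fold change -0.38), and none was called by edgeR. The part of both lists in the result was not tested. Within the endothelial-like clusters, the members differed unevenly: in the cluster led by Ccl21a and Mmrn1, lymphatic endothelial markers, Nfkbia was 2022, 1923 and 2305 CPM in control and 1211, 1282 and 1388 in knockout libraries. In that cluster the log2 fold change was -0.76 ± 0.18 for Nfkbia and -0.80 ± 0.20 for Nfkbiz (SE), with edgeR adjusted p-values of 0.132 and 0.134. In the cluster led by Rspo3, Selp and Ptprb it was -0.38 for Nfkbia and -0.51 for Nfkbiz, and in the cluster led by Mecom, Npr3 and Gja5 -0.08 and -0.18. The difference between clusters was not tested, and the share of the Ccl21a cluster among endothelial-like cells ranged from 6.28% to 23.7% in control and from 6.44% to 12.5% in knockout libraries. It held 34 to 154 cells per control and 29 to 40 per knockout library. The Stab2 cluster had 5, 8 and 87 cells in control and 79, 18 and 18 in knockout libraries. Libraries with under 20 cells kept it from being fitted.

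Genes around the members in the pathway were read from lists in the same fit of endothelial-like cells, and none of them was called. Some genes stand in more than 1 list, such as Tbk1. Of 27 upstream kinases and adaptors, 15 had lower and 12 higher means (median -0.03). The smallest p-values there belonged to Traf3, an adaptor that keeps NIK low (-0.33 ± 0.15), and Ikbke, an IKK-related kinase (-0.79 ± 0.38), among the lower genes. Among the higher genes they belonged to Ikbkg, the regulatory subunit of the IKK complex (0.39 ± 0.18), and Irak4, a kinase of Toll-like receptor signalling (0.28 ± 0.16). Of 19 other inhibitors and feedback genes, 13 were lower and 6 higher (median -0.07), led by Zc3h12a, an endoribonuclease that degrades inflammatory mRNAs (-0.24 ± 0.11), and the nuclear IkB gene Bcl3 (-0.29 ± 0.15). On the higher side were Otud7b, a deubiquitinase that restrains non-canonical signalling (0.17 ± 0.14), and the ubiquitin ligase Itch (0.19 ± 0.16).

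Receptors showed no common direction, with 6 of 13 tested genes lower and 7 higher (median 0.03). Tnfrsf11a, which encodes RANK (-0.36 ± 0.21), and Cd40 (-0.45 ± 0.28) led the lower side, and Tnfrsf1a, the main TNF receptor (0.23 ± 0.18), and Il1rap (0.19 ± 0.23) the higher side. Of 6 ligands tested, 4 were lower and 2 higher (median -0.57). Ltb, a ligand of the lymphotoxin β receptor, was at 12.9 ± 3.6 CPM in control and 8.4 ± 2.1 in knockout libraries (n = 3 each), without overlap, and Tnf at 21.0 ± 16.9 and 11.7 ± 6.6. Il33 (0.17 ± 0.15) and Il1a (0.39 ± 0.65) were on the higher side.

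Of 31 NF-kB target genes tested, 25 had lower and 6 higher means (median -0.22), where 48.9% of all genes had lower means. Among the lower genes the smallest p-values were those of Lif, a cytokine of the interleukin-6 family, and the chemokine Ccl7. Lif was at 9.8 ± 5.0 CPM in control and 1.5 ± 0.7 in knockout libraries (n = 3 each), and Ccl7 at 4.6 ± 1.6 and 1.6 ± 0.9. They rest on few counts, 130 UMIs for Lif and 86 for Ccl7 in all. The adhesion molecules Icam1 (0.21 ± 0.15) and Vcam1 (0.24 ± 0.22) stood on the higher side. Among the dissociation-induced genes, the smallest p-values were those of the heat-shock genes Hspa1b (-1.03 ± 0.22) and Hspe1 (-0.63 ± 0.15), and the only higher gene was Btg2 (0.16 ± 0.16). Of the 5 STING pathway genes, 3 were lower, among them the kinase Tbk1 (-0.22 ± 0.11), and the transcription factors Irf7 (0.17 ± 0.30) and Irf3 (0.02 ± 0.15) were higher. The adjusted p of these named genes was at least 0.747 in edgeR's quasi-likelihood test.

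The endothelial difference was also set against that of T-like cells, the largest class (15429 cells). Whether Cdh5-Cre acts in T-like cells was not tested beyond the Sting1 counts given above. None of the 10 members passed edgeR's interaction test (0 of 10, where 0% of 13811 genes were called and 741 had an unadjusted p under 0.05). For 8 of the 10 the knockout difference was lower in endothelial-like than in T-like cells, as for 53.0% of all genes. The largest gap was that of Tnfaip3, -0.44 ± 0.21, followed by Nfkbiz, -0.26 ± 0.14 (SE), with edgeR adjusted p-values of 0.959 and 0.965. None of the 10 interaction p-values was under 0.05 before adjustment.

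Outside the endothelium the members again had lower means in the knockout, and again none passed the main test. Over the 11 classes, endothelial-like cells included, 99 of 110 gene-by-class log2 fold changes were below 0. Of all genes, 48.3% to 51.8% were below 0, by class. The median of the 10 genes was below 0 in all 11 classes, from -0.05 in B-like to -0.51 in mesothelial-like cells. These classes come from the same 6 libraries and are not independent. Nfkb1, Rel, Relb, Nfkbia and Tnfaip3 were below 0 in all 11 classes, Nfkbiz and Tnip1 in 10, Rela and Birc3 in 9 and Nfkb2 in 6. In plain CPM, without TMM scaling, knockout 1 held the lowest of the 6 values in 75 of the 110 cases. Without knockout 1 the number below 0 was 77 of 110, and without control 3 it was 86.

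**Figure D5:**
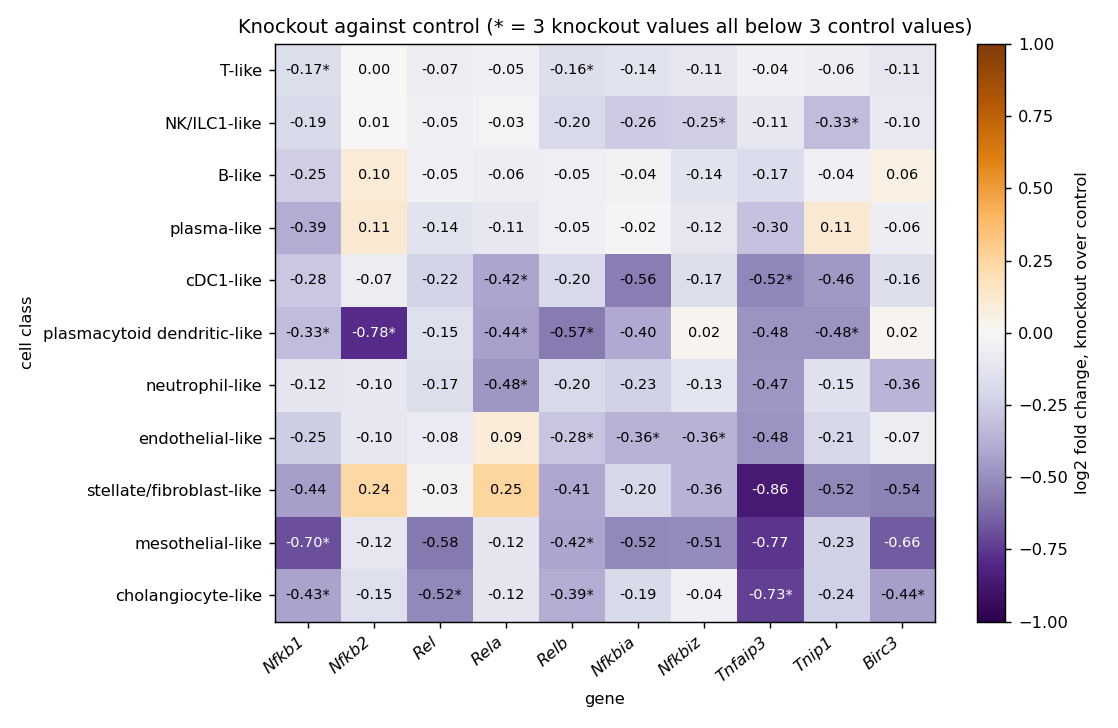
Log2 fold change, knockout over control, of the 10 genes (columns) in the 11 classes tested (rows). An asterisk marks cases where the 3 knockout values, in TMM-scaled CPM, all lay below the 3 control values. Most cells are below 0, with the lowest row medians in mesothelial-like and plasmacytoid dendritic-like cells, and asterisks mark 22 of 110 cases, where 4.08% to 10.3% of all genes, by class, were lower in this way.

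edgeR called 0 of the 10 members in each of the 10 other classes. Among all genes it called 0.00887% in B-like, 0.0102% in cDC1-like, 0.0103% in NK/ILC1-like and 0.00775% in T-like cells, which is 1 gene each (Mt1, Ccl5, Gm49313 and Il23r, named after their values were seen). It called 0% in the other 6 classes. The chemokine gene Ccl5 in cDC1-like cells was the only pathway list gene among these, with 121, 159 and 119 CPM in control and 47.7, 37.4 and 52.9 in knockout libraries (log2 fold change -1.52 ± 0.18, edgeR adjusted p = 0.0099). Without control 1 or without knockout 1 it was not called (adjusted p = 0.0905 and 0.0802). Over all alternatives its log2 fold change lay between -1.63 and -1.28, and its adjusted p between 3.26e-12 and 0.0905. Ccl5 is known from T and NK cells, and summed T-cell markers in cDC1-like cells were also lower without overlap (50.8 to 66.7 CPM in control and 34.2 to 41.3 in knockout libraries). Their part was not tested. DESeq2 called members in 2 classes, described next, and 0 of 10 in the others.

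Cholangiocyte-like cells showed 5 members whose groups did not overlap, all lower in the knockout, where 7.86% of all genes did so. The same 5 had an unadjusted p under 0.05 (9.55% of all genes). Nfkb1 was 344, 348 and 348 CPM in control and 230.4, 278 and 264 in knockout libraries, a log2 fold change of -0.43 ± 0.10 (SE). Tnfaip3 was 86.1, 121 and 101 against 41.9, 81.9 and 63.4 CPM (-0.73 ± 0.22). Rel was 104, 125 and 114 against 63.8, 90.6 and 86.0 CPM (-0.52 ± 0.13). Knockout 1 was the lowest library for all 3. Relb (-0.39 ± 0.11) and Birc3 (-0.44 ± 0.11) completed the set, with edgeR adjusted p-values of the 5 genes between 0.327 and 0.432.

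DESeq2 called Nfkb1 (adjusted p = 0.0212) and Tnfaip3 (adjusted p = 0.0367) in cholangiocyte-like cells, and edgeR without a filter on low counts called Rel (adjusted p = 0.0276). Over all genes of this class these fits called 34 and 62. Nfkbiz, which was high in this class, was 1475 ± 174 CPM in control and 1432 ± 169 in knockout libraries (n = 3 each), a log2 fold change of -0.04 ± 0.12. Here the dissociation list went the other way from the members: its sum was 48204 to 52387 CPM in control and 53970 to 55596 in knockout libraries. Summed hepatocyte markers in these cells were 3466 to 3613 CPM in control and 3477 to 3741 in knockout libraries, and summed cholangiocyte markers 13472 to 15162 and 12012 to 16867. Summed mesothelial markers were higher without overlap, at 309 to 414 CPM in control and 424 to 482 in knockout libraries, and their part was not tested. The mesothelial list shares Krt19 with the cholangiocyte list, so this sum is not a measure of mesothelial cells alone.

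In mesothelial-like cells the 10 members had the lowest median of any class, -0.51, and 6 had an unadjusted p under 0.05, where 17.2% of all genes did. Nfkb1 was 306, 513 and 452 CPM in control and 244, 247 and 294 in knockout libraries, without overlap (-0.70 ± 0.18 SE, edgeR adjusted p = 0.127). Relb was 105, 115.2 and 121 against 81.2, 73.1 and 101 CPM, the second gene without overlap (-0.42 ± 0.12), where 10.3% of all genes had all knockout values below. Control 1 was low throughout this class. Nfkbia stood at 1362 CPM in control 1 but 2316 and 2631 in control 2 and 3, against 1459, 1286 and 1667 in the knockout libraries.

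Without control 1, edgeR called 5 members in mesothelial-like cells (Nfkb1, Rel, Nfkbia, Nfkbiz and Birc3) among 107 genes, and the median of the 10 was -0.74. DESeq2 on all 6 libraries called Nfkb1 (adjusted p = 0.00506), Tnfaip3 (0.0219), Birc3 (0.0273) and Rel (0.0381) among 371 genes. The summed dissociation list followed the same libraries: 29652 CPM in control 1, 56449 and 48629 in control 2 and 3, and 25961 to 33560 in the knockout libraries. All 21 of its genes had lower knockout means. Summed T-cell markers were 33.3 to 67.3 CPM in control and 27.1 to 31.8 in knockout libraries. The part of both lists in the members' difference was not tested.

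Plasmacytoid dendritic-like cells, with 21 to 73 cells per library, had 5 members without overlap, all lower, where 5.16% of all genes were. These were Nfkb1 (-0.33 ± 0.19), Nfkb2 (-0.78 ± 0.36), Rela (-0.44 ± 0.29), Relb (-0.57 ± 0.26) and Tnip1 (-0.48 ± 0.26), so 4 of the 5 subunits were among them. In plain CPM, without TMM scaling, Nfkb1 overlapped (905 in control 3 and 921 in knockout 2). So did Rela (76.7 in control 3 and 79.1 in knockout 2). Nfkb2 was 83.5, 62.3 and 59.2 CPM in control and 32.1, 40.5 and 51.7 in knockout libraries, from 93 UMIs in all. Counts of that size leave wide errors, and the edgeR adjusted p-values of the 5 genes were 0.78 to 0.965. Of the 10 members, 2 had an unadjusted p under 0.05 (5.95% of all genes). Summed cDC1 markers in these cells were higher without overlap, at 1780 to 1944 CPM in control and 2320 to 2675 in knockout libraries, with Xcr1 at 0, and their part was not tested. In the cluster of this class led by Siglech, Cox6a2 and Ccr9, the cDC1 list, which includes Irf8, had the second-highest marker score. Which of its genes carried the sum was not examined.

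In cDC1-like cells, dendritic cells specialised in cross-presentation, all 10 members had lower knockout means (median -0.25), and 4 had an unadjusted p under 0.05 (5.63% of all genes). Tnfaip3 was 591, 559 and 577 CPM in control and 260.5, 444 and 496 in knockout libraries (-0.52 ± 0.20), and Rela 65.8, 73.2 and 52.3 against 45.2, 48.6 and 48.2 (-0.42 ± 0.18). These were the 2 members without overlap, where 5.75% of all genes were lower without overlap. In plain CPM, without TMM scaling, Rela overlapped, with 49.1 in control 3 and 51.7 in knockout 2. Nfkbia (-0.56 ± 0.22) and Tnip1 (-0.46 ± 0.20) overlapped. The edgeR adjusted p-values of these 4 genes were 0.818 to 0.871. Beside the lower T-cell markers given above, summed B-cell markers were higher without overlap, at 12.3 to 35.7 CPM in control and 48.3 to 123.9 in knockout libraries. The dissociation list was lower, at 33867 to 36222 and 26281 to 32112 CPM. The part of these lists was not tested.

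Medians were near 0 in T-like (-0.09) and B-like cells (-0.05). In T-like cells Nfkb1 was 1358, 1427 and 1276 CPM in control and 1119, 1228 and 1273 in knockout libraries (-0.17 ± 0.11), and Relb 227, 212 and 214 against 197, 183 and 205 (-0.16 ± 0.09). They were the 2 members without overlap, where 5.52% of all genes were lower without overlap, and no member had an unadjusted p under 0.05 (5.80% of all genes). In plain CPM, without TMM scaling, Nfkb1 overlapped, with 1252 in control 3 and 1294 in knockout 2. Tnfaip3, high in this class, was 1739 ± 59.9 CPM in control and 1686 ± 62.1 in knockout libraries (n = 3 each). The dissociation list summed to 29133 to 30427 CPM in control and 23464 to 27756 in knockout T-like cells, and its part was not tested. The clusters that make up this class also differed in share. The Frmd5 cluster, highest in Nfkb1, was 10.7% to 13.7% of T-like cells in control and 14.3% to 20.6% in knockout libraries. The Epha3 cluster, lowest in Nfkb1, was 19.5%, 2.94% and 4.99% in control and 2.33%, 3.66% and 1.85% in knockout libraries, so that control 1 stood apart. The cluster led by Il23r, Cd163l1 and Trdc was 6.98% to 11.5% in control and 4.69% to 5.91% in knockout libraries.

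In NK/ILC1-like cells Tnip1 was 211, 206 and 280 CPM in control and 184 in each of the 3 knockout libraries (-0.33 ± 0.13), and Nfkbiz 731, 718 and 737 against 629, 593 and 617 (-0.25 ± 0.11). These 2 did not overlap (6.38% of all genes were lower without overlap) and were the 2 with an unadjusted p under 0.05 (6.37%). The dissociation list was lower here too, at 34933 to 38498 CPM in control and 29256 to 33170 in knockout libraries, and its part was not tested. In B-like cells no member was without overlap (6.09% of all genes were lower without overlap) or had an unadjusted p under 0.05 (6.10%). Rel, high in B-like cells, was 1757 ± 31.7 CPM in control and 1702 ± 210 in knockout libraries (n = 3 each).

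Neutrophil-like, plasma-like and stellate/fibroblast-like cells had no member with an unadjusted p under 0.05, where 4.71%, 5.30% and 3.34% of all genes had one. In neutrophil-like cells all 10 members had lower means (median -0.18), and Rela alone was without overlap, at 79.9, 77.8 and 85.3 CPM in control and 55.0, 62.5 and 58.8 in knockout libraries (-0.48 ± 0.23), where 4.08% of all genes were lower without overlap. Nfkbia there was 2898, 2860 and 5685 CPM in control 1, 2 and 3 and 2761, 3634 and 3375 in knockout libraries. Control 3, which was high, also had the largest share of the Acod1 cluster, 75.5%, against 36.1% to 56.2% in the other libraries. Within the Acod1 cluster the median of the 10 was 0.11, and without control 3 the median for the class was 0.10. In plasma-like and stellate/fibroblast-like cells no member was without overlap (5.17% and 4.70% of all genes were lower without overlap), and the medians were -0.08 and -0.39.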

How the data were processed

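Gene by barcode tables of 6 mouse liver libraries were analysed. Per the labels and the files, the deposited values are raw UMI counts made by the authors. The submitters' processing notes name Cell Ranger 7.1.0, Seurat 4.1.1 and mm10; whether intronic reads were counted is not given in the sources used here. Libraries held 55017937 to 73867890 UMIs, and depth limits the precision of low genes.

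A barcode entered with 300 or more genes detected and no more than 20% of its UMIs mitochondrial (42682 passed), and 1109 doublets were removed with scrublet. Automatic doublet thresholds failed in 2 libraries, and the common threshold of the other 4 was used. Cells were clustered with scanpy 1.11.5 and leidenalg 0.10.2 (3000 variable genes, 40 components, resolution 1.0), without integration across libraries. Clusters were named from marker lists, and the naming thresholds were set after the scores had been seen. In all 51 clusters resulted, of which 15 with 3093 cells stayed unnamed.

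UMIs were summed per library and class and tested with edgeR 4.0.16 (quasi-likelihood F-test, TMM, filterByExpr, R 4.3.3), with Benjamini-Hochberg adjustment over all genes of a class and a threshold of 0.05. DESeq2 1.42.0 was an alternative. Levels by class and cluster and the summed lists are plain CPM, also where the genotypes are set side by side. CPM of single genes in genotype comparisons of a class, Sting1 included, are TMM-scaled. With 3 libraries per group an exact permutation test cannot go below 0.1. On simulated counts for endothelial-like cells (12161 genes), the edgeR test recovered 52% of genes changed by 1 on the log2 scale and 92% of those changed by 2. It also called 23 unchanged genes there, more than the nominal 5% of its calls. The members and gene lists were chosen with earlier results of these data known. Named genes were the 10 members in every class tested, any list gene called, and otherwise, in endothelial-like cells, the 2 of each list with the smallest p-value in each direction. They also included the 3 genes most like each member, among genes of at least 20 CPM, and Sting1. For Rela, 1 of these genes is not reported here. The same replicate numbers in both groups were not taken as pairs in the main test.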

Additional observations from a re-analysis of the deposited data

How the results depend on the processing

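In 45 results, 677 values were recomputed under alternative settings: 595 were labelled as the same, 69 as moved and 13 as reversed. For fold changes of single members in endothelial-like cells, same means the same direction and side of the threshold. For medians it means the same direction and a shift under the members' median SE. For counts it means a value close to the main one. The number of members called was 0 in 154 of 158 combinations of class and setting, and their median was below 0 in 155 of 158. These are 12 to 18 settings per class on the same libraries, so they are not independent. Members were called in cholangiocyte-like cells with DESeq2 (2) and without a filter on low counts (1), and in mesothelial-like cells with DESeq2 (4). Of the cholangiocyte-like members, 1 had no adjusted p in DESeq2. The number of genes called moved more. With DESeq2 it was 22 in B-like, 9 in cDC1-like, 34 in cholangiocyte-like, 14 in endothelial-like, 371 in mesothelial-like, 2 in neutrophil-like, 12 in NK/ILC1-like, 3 in stellate/fibroblast-like and 23 in T-like cells. Without a filter it was 122 in B-like, 58 in cDC1-like, 62 in cholangiocyte-like, 1 in endothelial-like, 280 in mesothelial-like, 22 in neutrophil-like, 62 in NK/ILC1-like, 59 in plasma-like, 31 in plasmacytoid dendritic-like, 25 in stellate/fibroblast-like and 16 in T-like cells. RLE size factors gave 3 in B-like cells, 2 in NK/ILC1-like cells, doublets kept gave 2 in B-like and 4 in cDC1-like cells, and a limit of 10% mitochondrial UMIs gave 2 in NK/ILC1-like cells. With the replicate number as a block it was 48 in B-like, 10 in cDC1-like, 4 in mesothelial-like, 16 in NK/ILC1-like and 2 in T-like cells, with no member called. Deviations of same-numbered libraries correlated at -0.05, 0.54 and 0.005 in endothelial-like cells, so the numbers were not taken as pairs. In B-like cells (0.15, 0.57 and 0.43) each control correlated best with its own number, in T-like and endothelial-like cells not. Leaving out 1 library gave 0 to 1 genes called in B-like, neutrophil-like, plasma-like and plasmacytoid dendritic-like cells, 0 to 7 in cDC1-like, 0 to 4 in cholangiocyte-like, 0 to 80 in endothelial-like, 0 to 107 in mesothelial-like, 0 to 5 in NK/ILC1-like and 0 to 0 in T-like cells. It gave 0 to 5 members called in mesothelial-like cells. Medians of the members then ranged from -0.74 to -0.41 in mesothelial-like, -0.35 to 0.10 in neutrophil-like (above 0 without control 3) and -0.22 to 0.019 in plasma-like cells (above 0 without knockout 1). In endothelial-like cells Nfkb2 ranged from -0.18 to 0.0053, Rel from -0.20 to 0.046 (0.034 without control 3), Birc3 from -0.15 to 0.062 and Rela from -0.0026 to 0.16. The next alternatives were chosen after seeing the data. With the library split as a term, 2 genes were called in B-like cells, 6 in NK/ILC1-like cells. Leaving out endothelial-like cells with a T or NK UMI called no member. Single clusters gave a median of -0.057 for the Mecom cluster, where Nfkb2 was 0.028, Relb 0.019 and Birc3 0.019. Rela was -0.0092 in the Rspo3 cluster and -0.30 in the Ccl21a cluster, which had 7 genes called, and the neutrophil Acod1 cluster had a median of 0.11. The cause of these changes was not tested. Allowing the members among the variable genes selected none of them, so this alternative repeated the main setting and could not differ from it. Its values are included in the counts above. Plasmacytoid dendritic-like cells had too few cells for a value with doublets kept or at 10% mitochondrial UMIs.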

Other observations

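A cluster of 269 cells that met no name, led by Dach2, Slc7a8, Il1rl1 and Pde7b, held the highest mean Nfkb1 of the 32 clusters described. Its Nfkb1 level was 4593, 4673 and 3551 CPM in control and 4369, 5077 and 4340 in knockout libraries, which overlapped. The same cells had 2703 ± 374 CPM of Tnfaip3, 3078 ± 337 of Nfkbia and 1502 ± 190 of Nfkbiz (n = 6 each). Il17rb and Gata3, genes known from type 2 lymphocytes, were also among its 10 leading genes, as was Stab2. Nfkb2 in these cells was 52.5 ± 19.1 and Relb 136 ± 40.8 CPM (n = 6 each).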
